A study of Homo sapiens with 4 samples.

Results

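The 52 genes described here act in G2 and M phase, the last stages of the cell cycle. They were taken by symbol from a commonly used list of genes expressed in those phases and make up 52 of the 36601 features in the deposited tables. All 52 were found, and each was read in single cells with at least 4000 unique molecular identifiers (UMIs, each counting 1 captured RNA molecule), at least 1000 genes and at most 20% of UMIs from mitochondrially encoded genes. The study profiled H9, a human embryonic stem cell line, by droplet sequencing of transcript 3′ ends. It used cells with a knockout (KO) of SIRT1, an NAD-dependent protein deacetylase, and wild-type cells (WT). Both were sampled at day 6 of a protocol that leads towards dopaminergic neurons and at day 0, before it. The 4 groups, KO at day 6, WT at day 6, KO at day 0 and WT at day 0, had 1 library each and gave 4419, 5372, 7275 and 5533 cells. The design of the series states a single replicate per sample, so no test between conditions was possible, and no p-value is given. The labels do not say whether the KO is 1 clone or whether KO and WT were grown side by side.

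In G2 the cyclin B and CDK1 kinase is built up, and its activation drives chromosome condensation, spindle assembly and breakdown of the nuclear envelope. Kinetochores then bind microtubules, the spindle checkpoint holds the anaphase-promoting complex until every chromosome is attached, and the cell divides by cytokinesis. Genes for these steps are kept low in G1 and rise late in the cycle, in part through the cell cycle homology region (CHR), a promoter element with the letters TTTGAA that the DREAM and MMB complexes bind, and through CCAAT boxes bound by NF-Y. Human embryonic stem cells are known for a short G1, which lengthens as they differentiate.

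Promoters of 5 of these genes are shown because 4 of them (CENPE, MKI67, HMMR and KIF11) had the highest ratios of KO to WT at day 6, and CCNB2 is a textbook gene of the CHR. Each window runs from 250 bases before to 50 bases after the annotated start, on the gene's own strand, from RefSeq on GRCh38.p14. Capitals mark TTTGAA and CCAAT on the printed strand and their reverse complements TTCAAA and ATTGG. In MKI67 a TTTGAA runs into an ATTGG and shares 1 letter with it, in HMMR a CCAAT and an ATTGG share 2, and capitals join such matches into 1 run. The windows are chr4:103198294-103198593 (minus strand), chr10:128126374-128126673 (minus), chr5:163460382-163460681 (plus), chr10:92592880-92593179 (plus) and chr15:59104896-59105195 (plus).
CENPE: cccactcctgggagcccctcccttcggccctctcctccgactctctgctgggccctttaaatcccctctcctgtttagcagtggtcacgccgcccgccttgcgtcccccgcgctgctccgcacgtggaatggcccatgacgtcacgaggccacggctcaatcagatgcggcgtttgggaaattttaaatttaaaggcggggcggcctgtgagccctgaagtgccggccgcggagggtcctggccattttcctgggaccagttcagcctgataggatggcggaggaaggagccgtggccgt
MKI67: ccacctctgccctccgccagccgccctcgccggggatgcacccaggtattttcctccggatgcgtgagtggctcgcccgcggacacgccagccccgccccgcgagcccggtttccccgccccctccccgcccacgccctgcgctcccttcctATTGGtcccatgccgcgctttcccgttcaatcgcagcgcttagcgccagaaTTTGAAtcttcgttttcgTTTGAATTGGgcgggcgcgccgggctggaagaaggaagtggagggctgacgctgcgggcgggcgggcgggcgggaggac
HMMR: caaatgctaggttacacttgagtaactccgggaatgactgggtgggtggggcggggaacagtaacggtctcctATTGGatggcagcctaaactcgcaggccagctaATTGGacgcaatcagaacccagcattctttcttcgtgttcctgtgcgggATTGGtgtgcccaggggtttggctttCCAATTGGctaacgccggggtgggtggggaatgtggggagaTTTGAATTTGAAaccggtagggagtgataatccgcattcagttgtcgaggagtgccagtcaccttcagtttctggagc
KIF11: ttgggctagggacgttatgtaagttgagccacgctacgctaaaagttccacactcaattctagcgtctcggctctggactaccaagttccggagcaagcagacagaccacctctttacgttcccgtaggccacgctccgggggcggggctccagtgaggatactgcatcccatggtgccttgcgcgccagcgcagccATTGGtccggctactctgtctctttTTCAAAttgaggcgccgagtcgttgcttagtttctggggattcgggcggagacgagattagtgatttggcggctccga
CCNB2: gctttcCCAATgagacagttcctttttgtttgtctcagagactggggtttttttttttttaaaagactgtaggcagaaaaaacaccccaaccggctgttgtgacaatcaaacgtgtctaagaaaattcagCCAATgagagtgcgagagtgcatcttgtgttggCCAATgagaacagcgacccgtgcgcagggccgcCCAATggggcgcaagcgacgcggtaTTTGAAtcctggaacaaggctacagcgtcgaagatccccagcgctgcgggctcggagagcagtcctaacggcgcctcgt

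HMMR held TTTGAA at positions -28 and -22 from the start and 5 matches of CCAAT, MKI67 held TTTGAA at -47 and -29, and KIF11 and CCNB2 held 1 match each, at -28 and -29. The CENPE window held neither motif. RefSeq windows were found for 44 of the 52 genes, and AURKA, HMGB2, TTK, UBE2C, TPX2, BIRC5, ANP32E and CDCA2 are without one. TTTGAA on either strand occurred in 32 of the 44 (72.7%), against 13.5% of 7755 genes that reached 10 UMIs per 1000000 (CPM) in any library and 18.2% of all 27305 genes of the table. Within the last 100 bases of the window, TTTGAA or its variant TTCGAA occurred in 26 of 44 (59.1%), against 5.02% and 6.24%. CCAAT occurred in 31 (70.5%), against 44.5% and 39.7%, and at least 2 copies of it in 24 (54.5%), against 17.2% and 12.9%. The E2F forms TTTGGCGC or TTTCCCGC occurred in 2 (4.55%, CENPA and NUSAP1), against 5.05% and 2.75%. A match describes these letters in this window and does not show that a factor binds there.

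The libraries held 54824132 to 78917192 UMIs, and the cells a median of 13169, 8590, 8367 and 12645 UMIs in KO at day 6, WT at day 6, KO at day 0 and WT at day 0. SIRT1 was measured at 9.95 CPM in KO and 30.2 CPM in WT at day 6, and 7.11 CPM in KO and 32.3 CPM in WT at day 0, which is 3.04-fold lower (2.77 to 3.34) in KO at day 6 and 4.54-fold lower (4.13 to 5.01) in KO at day 0. The labels do not say how the gene was knocked out, so whether these 3′ reads lie in a changed stretch is not known here. KO cells differed from WT cells on chromosome 20. Its share was taken over a cell's UMIs outside mitochondrially encoded and ribosomal protein genes. This share was at least 3% in 27.3% of KO cells at day 6 and 28.3% at day 0, against 78.1% and 96.3% of WT cells. Results that this touches are given also for those KO cells alone, called chromosome 20-rich KO cells. Ribosomal protein genes took 27.9% and 32.0% of UMIs in KO and WT at day 6 and 24.8% and 24.1% at day 0. Between any pair of libraries 5 to 18 cell barcodes were shared, at most 0.325% of the smaller library. The pluripotent marker list summed to 1514 and 1290 CPM in KO and WT at day 6, and to 3613 and 4417 at day 0, while the neural progenitor list summed to 3829 and 3304 at day 6 and to 749 and 499 at day 0, though of that list PAX6 and HES5 had no more than 61 UMIs in a library.

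Levels are given as CPM, counted over all cells of a library. Behind each ratio stands its exact 95% interval in parentheses, which sets 2 libraries side by side and covers counting error only. A gene was called higher or lower where the ratio reached 1.5-fold, the interval excluded 1 and 1 of the 2 libraries had 10 CPM or more. All 52 genes had at least 10 CPM in all 4 libraries, with 594 to 49383 UMIs, so counting error put each level within 8.38%. A level in summed cells cannot tell fewer cells in G2 or M phase from less RNA per cell, and the single cells are taken up after the sums.

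Together the 52 genes took 7516 CPM in KO and 5813 CPM in WT at day 6, and 6391 CPM in KO and 6465 CPM in WT at day 0. KO and WT were thus nearly level at day 0, with a ratio of 0.989 (0.985 to 0.993), and apart at day 6, with a ratio of 1.29 (1.287 to 1.299). Mean levels over the 4 libraries ran from 14.8 CPM for CKAP2L to 625 CPM for TOP2A, the topoisomerase that untangles sister chromatids. TOP2A, CBX5, CKS1B, CKS2 and HMGB2 had the 5 highest mean levels. The plot of levels shows KO at day 6 to the right of WT at day 6 for most genes, and the day 0 libraries close together.

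**Figure D1:**
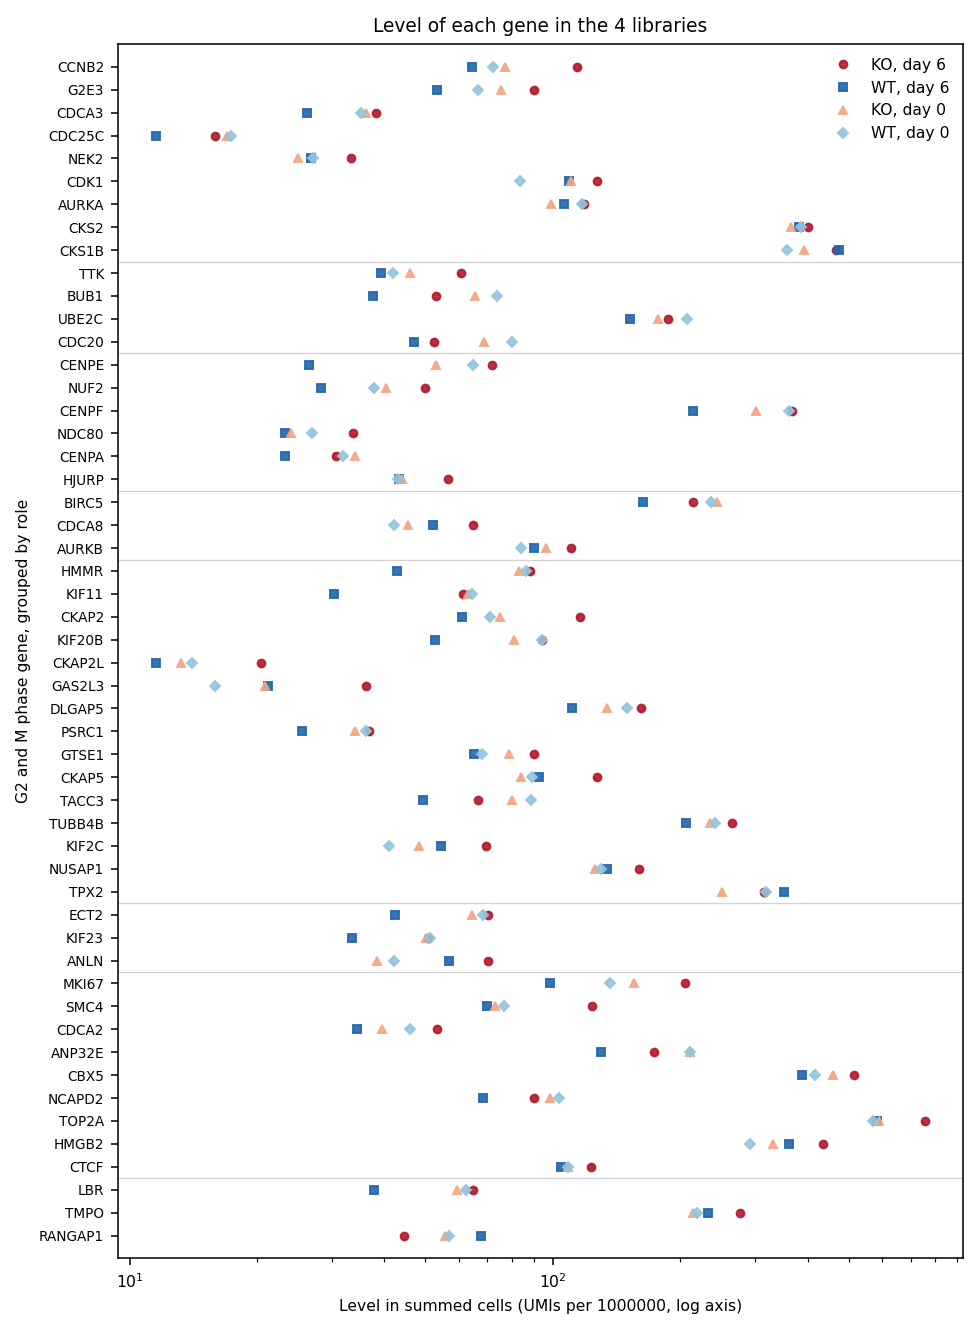
Level of each of the 52 genes in the summed cells of the 4 libraries (CPM, log axis), genes grouped by role from kinases at the top to the nuclear envelope at the bottom, 1 library per point. CENPE, MKI67 and HMMR show the widest gaps between KO and WT at day 6, and RANGAP1 lies lower in KO.

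At day 6, 18 of the 52 genes were higher in KO and 1 was lower. Over all 8723 measured genes 17.4% were called higher and 4.36% lower. The median log2 ratio of the 52 was 0.44, against 0.25 for all measured genes, 49 lay above 0 and 44 lay above the median of all genes. WT at day 6 had the highest ribosomal protein share, and edgeR's TMM factors, which scale libraries by the bulk of their genes, put the median of all genes at 0.03. By these factors 10 of the 52 were higher (all genes 7.22%) and 1 lower (8.04%), with a median of 0.23. The gap between the 52 genes and all genes was 0.20 under both scalings. In chromosome 20-rich KO cells 16 genes were higher (all genes 17.2%) and none lower (3.95%). Among the 18 genes, G2E3, TTK, CENPF, GAS2L3, ECT2, KIF23, CDCA2 and LBR fell short of the limit with TMM factors. TTK, KIF23 and LBR also fell short in chromosome 20-rich KO cells, where UBE2C passed it. UBE2C lies on chromosome 20 and itself contributes to the choice of these cells.

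**Figure D2:**
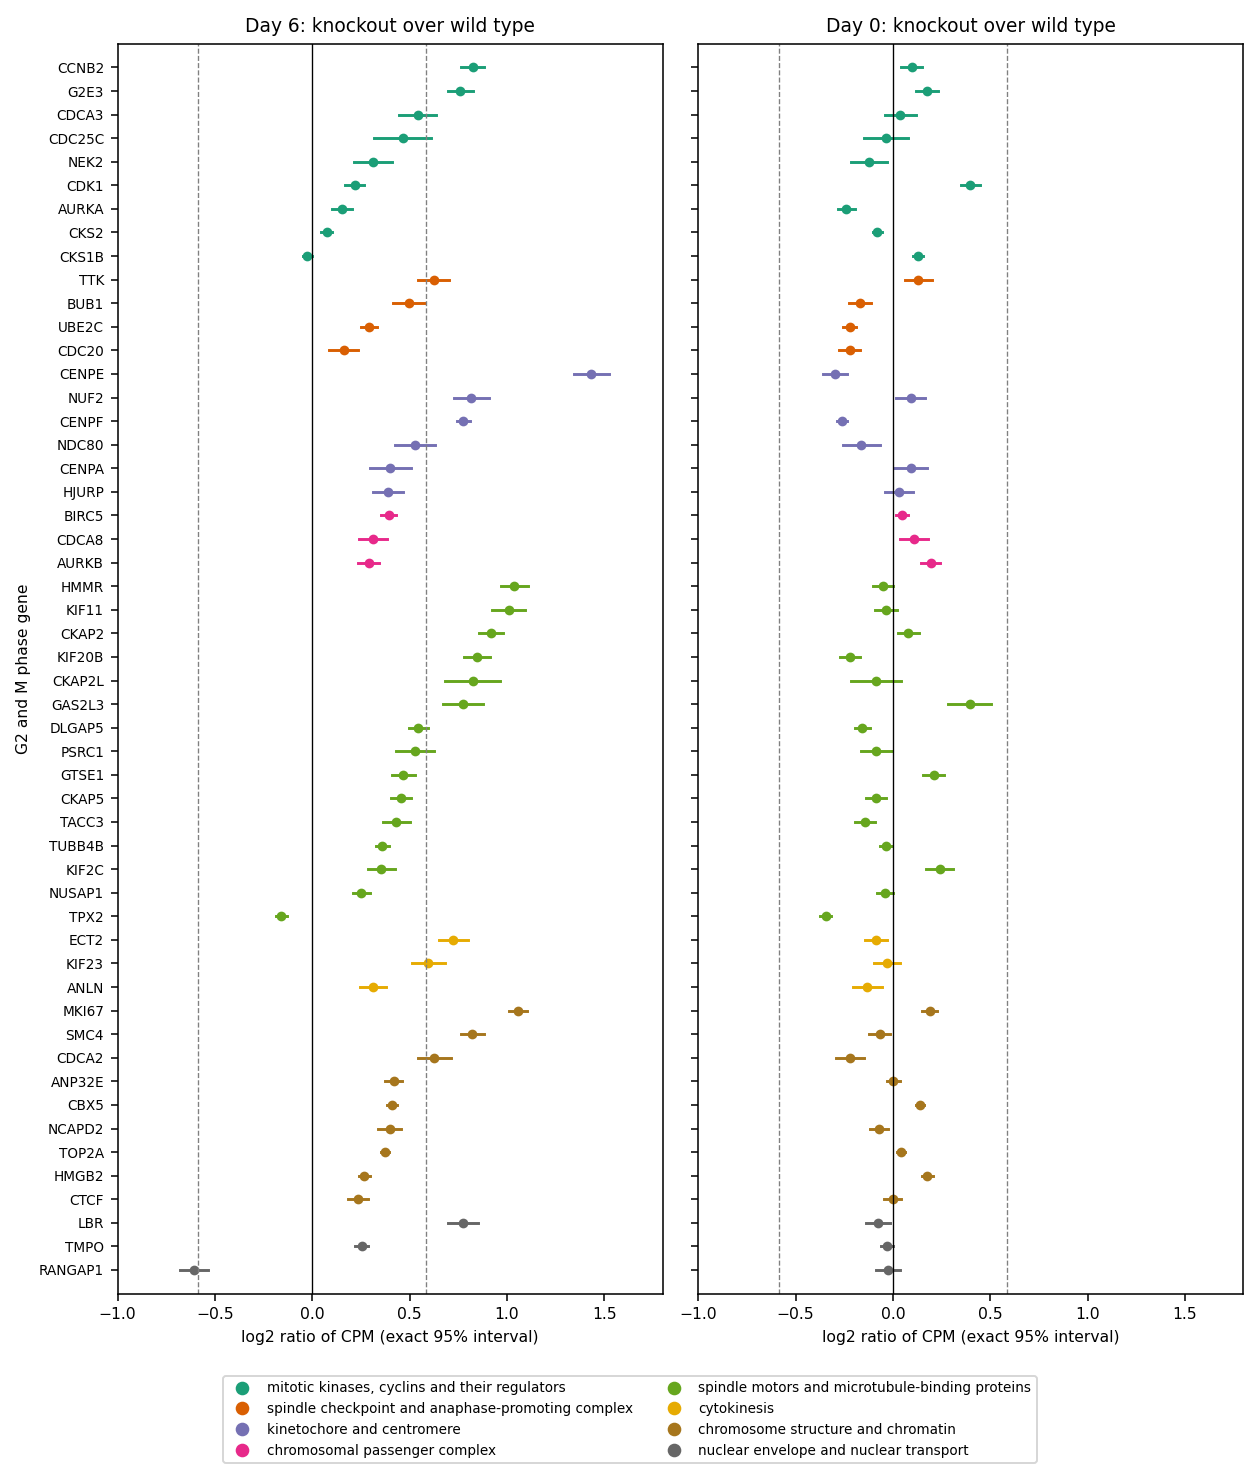
log2 ratio of CPM, KO over WT, at day 6 (left) and day 0 (right), with exact 95% intervals of counting error, genes coloured by role and dashed lines at 1.5-fold. At day 6, 18 genes pass the right line and RANGAP1 the left one, and at day 0 no gene passes either.

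Kinetochore and centromere genes had the widest difference of the 8 roles, with a summed level of 609.9 CPM in KO and 359 CPM in WT at day 6, a ratio of 1.70 (1.67 to 1.73), and 3 of 6 called higher. CENPE, the kinesin that carries chromosomes to the spindle equator, had 71.7 CPM in KO and 26.5 CPM in WT at day 6, and 52.8 CPM in KO and 64.8 CPM in WT at day 0. Its ratio at day 6 was 2.70-fold (2.54 to 2.87), the highest of the 52, and at 26.5 CPM the WT library at day 6 stood below the other 3. CENPF, a large kinetochore protein that appears in G2, had 368 CPM in KO and 215 CPM in WT at day 6, and 301 CPM in KO and 362 CPM in WT at day 0. Its ratio at day 6 was 1.71-fold (1.67 to 1.75), with KO at day 6 and WT at day 0 nearly level. NUF2, of the NDC80 complex that grips microtubules, was higher as well, with 1.76-fold (1.66 to 1.88), while its partner NDC80 missed the limit with a ratio of 1.44 (1.34 to 1.55). CENPA, the histone variant that marks centromeres, had 30.7 CPM in KO and 23.3 CPM in WT at day 6, and 34.0 CPM in KO and 31.9 CPM in WT at day 0, and HJURP, which loads it, had a day 6 ratio of 1.31 (1.24 to 1.38); neither was called.

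Among spindle motors and microtubule-binding proteins 6 of 15 were higher at day 6: HMMR, KIF11, CKAP2, KIF20B, CKAP2L and GAS2L3. HMMR, which binds hyaluronan and spindle microtubules, had 88.2 CPM in KO and 42.9 CPM in WT at day 6, and 83.3 CPM in KO and 86.2 CPM in WT at day 0, and its day 6 ratio was 2.05-fold (1.96 to 2.16). KIF11, the motor that pushes spindle poles apart, had 61.2 CPM in KO and 30.4 CPM in WT at day 6, and 63.0 CPM in KO and 64.6 CPM in WT at day 0, with a day 6 ratio of 2.01-fold (1.90 to 2.13). For both genes the WT library at day 6 was low and the other 3 lay close together. CKAP2, a microtubule stabiliser, had 116 CPM in KO and 61.2 CPM in WT at day 6, and 75.2 CPM in KO and 71.2 CPM in WT at day 0, and CKAP2L, its paralogue, had 20.5 CPM in KO and 11.6 CPM in WT at day 6, and 13.3 CPM in KO and 14.1 CPM in WT at day 0. Their ratios at day 6 were 1.89-fold (1.81 to 1.97) and 1.77-fold (1.61 to 1.95), and here KO at day 6 was the library that stood above the other 3. GAS2L3, which links actin and microtubules, had 36.3 CPM in KO and 21.2 CPM in WT at day 6, and 20.9 CPM in KO and 15.9 CPM in WT at day 0, the lowest level being in WT at day 0. TACC3, which crosslinks spindle microtubules, had 66.6 CPM in KO and 49.4 CPM in WT at day 6, and 80.3 CPM in KO and 88.5 CPM in WT at day 0, and GTSE1, a microtubule-binding protein of G2, had 90.3 CPM in KO and 65.2 CPM in WT at day 6, and 78.7 CPM in KO and 68.1 CPM in WT at day 0. KIF2C, a kinesin that takes microtubule ends apart, had 69.5 CPM in KO and 54.3 CPM in WT at day 6, and 48.4 CPM in KO and 41.0 CPM in WT at day 0. These 3 were above 1 at day 6, with ratios of 1.35 (1.28 to 1.42), 1.38 (1.33 to 1.44) and 1.28 (1.22 to 1.34), and were not called. TPX2, which activates AURKA at the spindle, had 315 CPM in KO and 352 CPM in WT at day 6, and 251 CPM in KO and 319 CPM in WT at day 0. It was 1 of only 3 genes with more in WT at day 6, with a ratio of 0.90 (0.88 to 0.91).

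In the group for chromosome structure and chromatin 3 of 9 were higher at day 6. MKI67, the Ki-67 protein that coats mitotic chromosomes, had 205 CPM in KO and 98.6 CPM in WT at day 6, and 156 CPM in KO and 137 CPM in WT at day 0, and its ratio at day 6 was 2.08-fold (2.01 to 2.15). SMC4, a core subunit of condensin, had 123 CPM in KO and 69.7 CPM in WT at day 6, and 73.0 CPM in KO and 76.5 CPM in WT at day 0 and a ratio of 1.77-fold (1.70 to 1.84), while NCAPD2, another condensin subunit, had a ratio of 1.32 (1.26 to 1.37). CDCA2, which brings a phosphatase to chromosomes after anaphase, had 53.2 CPM in KO and 34.5 CPM in WT at day 6, and 39.6 CPM in KO and 46.1 CPM in WT at day 0 and a ratio of 1.54-fold (1.46 to 1.64). The 2 abundant genes TOP2A and HMGB2 had ratios of 1.30 (1.28 to 1.31) and 1.20 (1.18 to 1.23), below the limit. CBX5, the heterochromatin protein HP1 alpha, had 515 CPM in KO and 387 CPM in WT at day 6, and 458 CPM in KO and 416 CPM in WT at day 0, ANP32E, a histone H2A.Z chaperone, had 174 CPM in KO and 130.0 CPM in WT at day 6, and 211 CPM in KO and 211 CPM in WT at day 0, and CTCF, a DNA-binding protein that shapes chromatin loops, had 123 CPM in KO and 104 CPM in WT at day 6, and 109 CPM in KO and 109 CPM in WT at day 0. None of these 3 was called at day 6.

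The kinases, cyclins and their regulators had the lowest summed ratio of the 8 roles, 1.12 (1.11 to 1.13), a sum in which CKS1B and CKS2 weigh most. Their median log2 ratio of 0.31 was level with the chromosomal passenger complex (0.31) and above the nuclear envelope (0.25). In this group 2 of 9 were higher: CCNB2, a B-type cyclin, with 1.77-fold (1.70 to 1.85), and G2E3, a ubiquitin ligase of G2, with 1.69-fold (1.62 to 1.77). CDK1, the mitotic kinase itself, had 127 CPM in KO and 109 CPM in WT at day 6, and 110.3 CPM in KO and 83.7 CPM in WT at day 0, and its ratio at day 6 was 1.16 (1.12 to 1.20). CKS1B and CKS2, small proteins that bind CDK1, were nearly level at day 6. CKS1B had 467 CPM in KO and 475 CPM in WT at day 6, and 391 CPM in KO and 358 CPM in WT at day 0, and CKS2 had 400.5 CPM in KO and 381 CPM in WT at day 6, and 365 CPM in KO and 386 CPM in WT at day 0. AURKA, a kinase of the spindle poles, had 118 CPM in KO and 106 CPM in WT at day 6, and 99.2 CPM in KO and 117 CPM in WT at day 0, with a day 6 ratio of 1.11 (1.07 to 1.15). Thus CCNB2 was called and CDK1 was not, although cyclin B binds CDK1.

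Of the spindle checkpoint and anaphase-promoting complex genes 1 of 4 was higher, TTK, the kinase that starts the checkpoint, with 1.54-fold (1.46 to 1.63). Its log2 ratio of 0.62 became 0.41 with TMM factors and 0.53 in chromosome 20-rich KO cells, so this call was lost under both. BUB1, a checkpoint kinase at kinetochores, had 53.03 CPM in KO and 37.6 CPM in WT at day 6, and 65.6 CPM in KO and 73.8 CPM in WT at day 0. CDC20, which activates the anaphase-promoting complex, had 52.5 CPM in KO and 46.9 CPM in WT at day 6, and 68.6 CPM in KO and 80.03 CPM in WT at day 0, and UBE2C, the ubiquitin-conjugating enzyme of that complex, had 187 CPM in KO and 152 CPM in WT at day 6, and 177 CPM in KO and 207 CPM in WT at day 0. In the cytokinesis group ECT2 and KIF23, which place the cleavage furrow, were higher, with 1.65-fold (1.57 to 1.74) and 1.51-fold (1.43 to 1.60). KIF23 had 50.6 CPM in KO and 33.5 CPM in WT at day 6, and 50.1 CPM in KO and 51.2 CPM in WT at day 0, and ANLN, an actin-binding scaffold of the furrow, had 70.4 CPM in KO and 56.7 CPM in WT at day 6, and 38.5 CPM in KO and 42.2 CPM in WT at day 0 and was not called. None of the 3 genes of the chromosomal passenger complex was called, and their ratios were 1.22 (1.18 to 1.27) for the kinase AURKB, 1.31 (1.28 to 1.35) for BIRC5 (survivin) and 1.24 (1.18 to 1.30) for CDCA8 (borealin). AURKB had 110.2 CPM in KO and 90.1 CPM in WT at day 6, and 96.2 CPM in KO and 84.1 CPM in WT at day 0.

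The nuclear envelope group was split at day 6. LBR, the lamin B receptor, was higher with 1.71-fold (1.62 to 1.81). RANGAP1, the GTPase activator that sustains the Ran gradient, had 44.4 CPM in KO and 67.5 CPM in WT at day 6, and 55.7 CPM in KO and 56.7 CPM in WT at day 0 and was 1.52-fold lower (1.45 to 1.60) in KO, the only gene of the 52 called lower. In chromosome 20-rich KO cells its log2 ratio was -0.51, no longer past the limit, against -0.61 in all KO cells. TMPO, a lamin-binding protein, had 277 CPM in KO and 232 CPM in WT at day 6, and 215 CPM in KO and 219 CPM in WT at day 0, with a ratio of 1.19 (1.17 to 1.22).

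The day 6 ratios went with base composition among the 52 genes, a description made after seeing the values. Across the 52, the log2 ratio of KO to WT at day 6 had a Spearman correlation of -0.51 with the GC content and 0.47 with the length of the transcript, against -0.29 and 0.19 over 8452 measured genes. All points share the same 2 libraries, and GC and length are those of GENCODE transcripts. Of the 26 genes with the lower GC content (32.9% to 42.5%), 15 were higher in KO with a median log2 ratio of 0.67, against 3 of the 26 with the higher GC content (42.6% to 59.4%) and a median of 0.37. By promoter letters, the median was 0.48 in the 34 genes with TTTGAA or TTCGAA and 0.42 in the 10 without. It was 0.46 in the 31 genes with CCAAT and 0.76 in the 13 without. CENPE had 35.3% GC, and RANGAP1 56.8%. At day 0 the same correlations over the 52 genes were 0.11 with GC content and -0.13 with length, against 0.21 and 0.05 over 8793 measured genes. The part of base composition in the day 6 ratios was not tested.

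Marker genes of other cells also differed at day 6. The mesenchymal list summed to 141 CPM in KO and 434 CPM in WT, with 2 of its 6 genes measured and both (COL1A1 and COL1A2) lower in KO, while LUM had 32 UMIs in KO and 0 in WT. Of the neural progenitor list 3 of 6 measured genes were higher in KO. Of the pluripotent list 1 of 8 was higher and 1 lower. The blood list stayed under 1 CPM in every library. The part of cell makeup in the ratios of the 52 genes was not tested.

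At day 0 none of the 52 genes was called higher in KO and none lower. Over 9095 measured genes 1.48% were called higher and 2.05% lower. The median log2 ratio was -0.04, against -0.01 for all genes, and the 52 ran from 1.27-fold lower, for TPX2, to 1.32-fold higher, for CDK1. The interval lay above 1 for 18 of them and below 1 for 22. CDK1 had 1.32-fold (1.27 to 1.36) and GAS2L3 1.31-fold (1.22 to 1.42) more in KO, followed by KIF2C with 1.18-fold (1.12 to 1.24), GTSE1 with 1.16-fold (1.11 to 1.20) and AURKB with 1.14-fold (1.10 to 1.18). At the low end after TPX2 (1.245 to 1.29) stood CENPE, 1.23-fold lower (1.18 to 1.28), CENPF, 1.20-fold lower (1.18 to 1.22), AURKA, 1.18-fold lower (1.14 to 1.22), and CDC20, 1.17-fold lower (1.12 to 1.21). CENPE and CENPF, both well above WT in KO at day 6, were thus below WT in KO at day 0.

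TPX2, AURKA and UBE2C are the 3 genes of the 52 on chromosome 20. Their summed level was 619.8 CPM in KO and 611 CPM in WT at day 6, a ratio of 1.02 (1.00 to 1.03), and 528 CPM in KO and 643 CPM in WT at day 0, a ratio of 0.821 (0.810 to 0.832). The other 49 had ratios of 1.33 (1.32 to 1.33) at day 6 and 1.01 (1.00 to 1.01) at day 0. Over all measured genes of chromosome 20, the median log2 ratio of KO to WT was -0.14 at day 6 (255 genes) and -0.33 at day 0 (283 genes). In chromosome 20-rich KO cells, a choice to which these 3 genes themselves contribute, their log2 ratios at day 0 were -0.02 for TPX2, 0.18 for AURKA and 0.10 for UBE2C, against -0.34, -0.24 and -0.22 in all KO cells. At day 6 they were 0.11, 0.53 and 0.63, against -0.16, 0.15 and 0.29.

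By total UMIs the median of the 52 genes rose from day 0 to day 6 in KO and fell in WT. The shares of the 52 called higher in KO (11.5%) and lower in WT (26.9%) were below those of all genes. In KO, 6 of the 52 genes were higher at day 6 than at day 0 and none was lower, where 13.9% of 9368 measured genes were higher and 20.9% lower. The median log2 ratio was 0.25, against -0.09 for all genes. In WT, none was higher and 14 were lower at day 6, where 11.7% of 9324 measured genes were higher and 37.2% lower, with a median of -0.22 against -0.35. With TMM factors the median in WT turned to 0.19, against 0.10 for all genes, and 8 were higher (all genes 25.8%) and 3 lower (18.6%), so the direction of the WT median depends on the scaling. In KO it was 0.38 with TMM, against 0.05, with 10 higher (all genes 19%) and 0 lower (15.5%). In both genotypes and under both scalings the 52 genes lay above the median of all genes, by 0.34 and 0.33 in KO and by 0.13 and 0.09 in WT. With every cell thinned to 4000 UMIs the gap was 0.22 in KO and -0.04 in WT. By this thinning 21 of the 52 genes were lower in WT (all genes 37.8%).

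The 6 genes higher at day 6 in KO were ANLN (1.83-fold (1.74 to 1.92)), GAS2L3 (1.73-fold (1.63 to 1.85)), SMC4 (1.69-fold (1.63 to 1.75)), CKAP2L (1.55-fold (1.42 to 1.68)), CKAP2 (1.54-fold (1.49 to 1.59)) and CKAP5 (1.52-fold (1.47 to 1.57)), a microtubule polymerase. The lowest in KO were CDC20, 1.31-fold lower (1.252 to 1.37), RANGAP1, 1.26-fold lower (1.20 to 1.32), BUB1, 1.24-fold lower (1.18 to 1.29), ANP32E, 1.22-fold lower (1.19 to 1.24), and TACC3, 1.21-fold lower (1.16 to 1.254), none of them past the limit. In WT the 14 lower genes were led by CENPE, 2.44-fold lower (2.30 to 2.597), KIF11, 2.12-fold lower (2.003 to 2.25), HMMR, 2.01-fold lower (1.91 to 2.11), BUB1, 1.96-fold lower (1.86 to 2.07), and TACC3, 1.79-fold lower (1.71 to 1.88). CENPE, KIF11 and HMMR were also lower past the limit with TMM factors. The highest in WT, under the limit, were ANLN (1.35-fold (1.28 to 1.42)), KIF2C (1.33-fold (1.26 to 1.40)), GAS2L3 (1.33-fold (1.23 to 1.45)), CKS1B (1.33-fold (1.31 to 1.35)) and CDK1 (1.31-fold (1.26 to 1.35)). ANLN and GAS2L3 thus stood at the top in both genotypes, and BUB1, TACC3 and CDC20 were low in both.

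**Figure D3:**
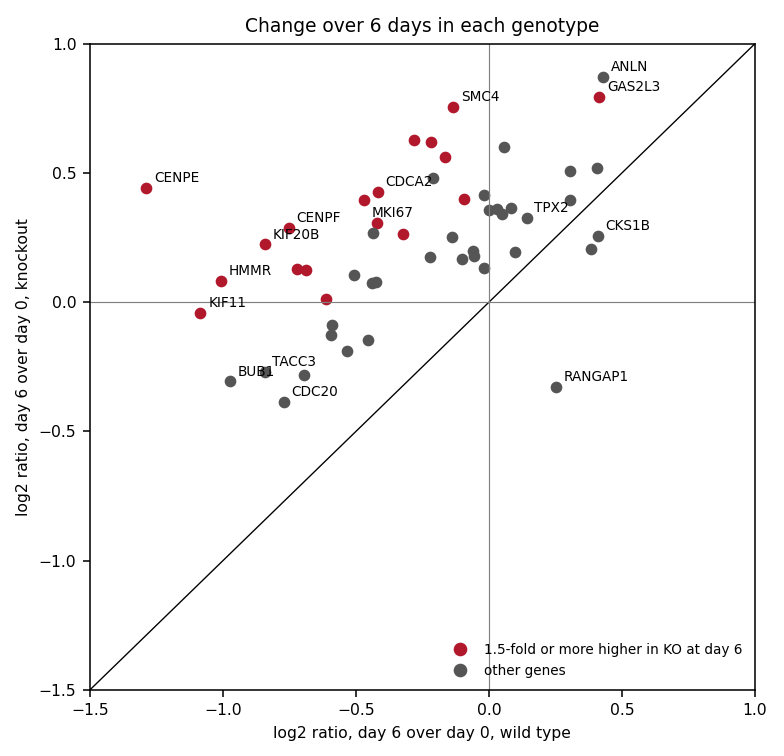
log2 ratio of CPM, day 6 over day 0, in KO (vertical) and in WT (horizontal) for the 52 genes, with the line of equal change. Red marks the 18 genes called higher in KO at day 6, a choice that uses the same day 6 libraries. RANGAP1, CKS1B and CDK1 lie below the line, and CENPE lies farthest from it.

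By total UMIs 28 of the 52 genes had a ratio above 1 in KO and below 1 in WT. This count depends on the scaling, as 37 had a log2 ratio below 0 in WT by total UMIs and 23 with TMM factors. The same count over all genes is not given here. For CENPE, MKI67 and CDCA2 the ratios by total UMIs passed 5 to 4 in opposite directions. With TMM factors the WT log2 ratios of MKI67 and CDCA2 were -0.06 and -0.01, and only CENPE stayed lower, at -0.88. Of the 18 genes higher in KO at day 6, 8 were lower at day 6 in WT and 4 were higher at day 6 in KO. These counts share the day 6 libraries, and the difference between genotypes was not tested.

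The single cells show how the summed levels were spread. Every cell was thinned to 4000 UMIs, so that depth was equal, and the 52 genes were summed per cell. The median cell gave them 0.475% of its UMIs in KO and 0.350% in WT at day 6, and 0.550% in KO and 0.575% in WT at day 0. Cells at day 6 were spread far more widely: the 10th and 90th percentiles were 0.175% and 1.5% in KO and 0.150% and 1.15% in WT, a span of 8.57-fold and 7.67-fold. At day 0 they were 0.325% and 1.05% in KO and 0.350% and 1% in WT, a span of 3.23-fold and 2.86-fold. The variance over the mean of the summed UMIs was 19.1 in KO and 18.7 in WT at day 6, and 5.68 in KO and 4.79 in WT at day 0. The top 20% of cells held 48.8% of these UMIs in KO and 51.2% in WT at day 6, against 35.2% in KO and 33.7% in WT at day 0. Within a day the spans of KO and WT were close.

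Cells that drew at least 1% of their UMIs from the 52 genes, a range and not a cell type, made up 19.0% of KO cells (95% interval, Clopper-Pearson, 17.9% to 20.2%) and 12.4% of WT cells (11.5% to 13.3%) at day 6. At day 0 they made up 12.03% of KO cells (11.3% to 12.8%) and 10.8% of WT cells (9.98% to 11.6%). Without thinning the shares were 19.0% in KO and 12.3% in WT at day 6, and 11.1% in KO and 8.98% in WT at day 0. Close to the limit, from 0.9% to 1.075% of UMIs, lay 186 KO and 163 WT cells at day 6, and 654 KO and 511 WT cells at day 0. The limit matters at day 0: at 1.5% of UMIs the shares were 10.1% in KO and 6.38% in WT at day 6, and 1.46% in KO and 0.976% in WT at day 0, and at 0.75% they were 27.7% in KO and 17.7% in WT at day 6, and 28.1% in KO and 28.2% in WT at day 0. At day 6 KO was above WT at all 3 limits. Free RNA, taken as 10% of each cell's UMIs with the profile of barcodes of 1 to 50 UMIs, would give the 52 genes 691 CPM and 579 CPM in KO and WT cells at day 6, and 644 CPM and 613 CPM at day 0.

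**Figure D4:**
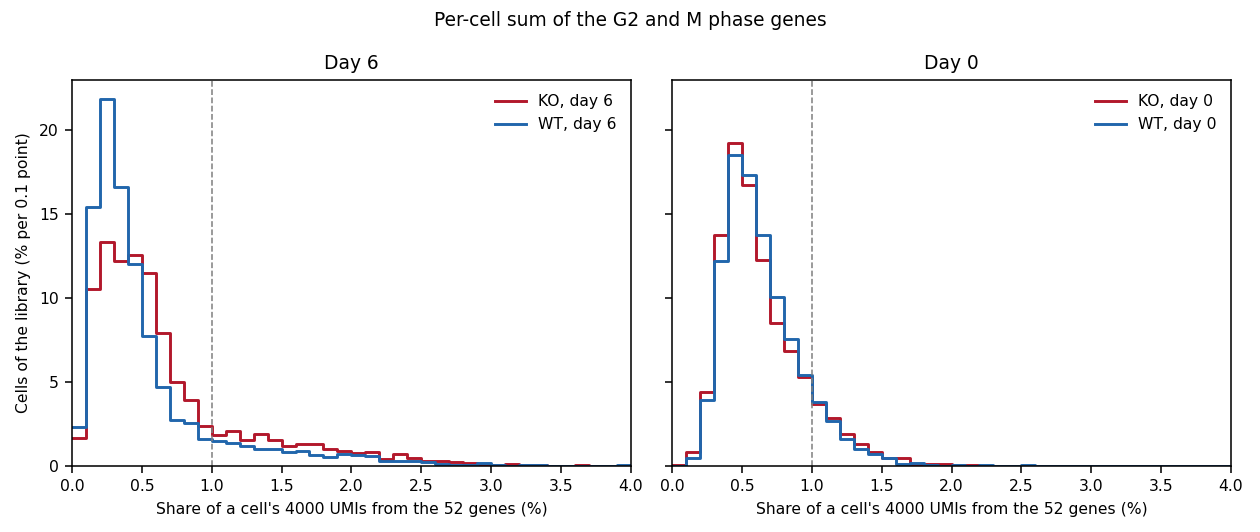
Share of cells (%, bins of 0.1 percentage points) by the share of a cell's 4000 UMIs that came from the 52 genes (%), at day 6 (left) and day 0 (right), KO in red and WT in blue, with a dashed line at 1%. Day 6 cells pile up at low values with a long tail, the tail being higher in KO, and day 0 cells form a single narrower peak in which KO and WT nearly coincide.

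Each gene was then set against the others. Cells of a library were ranked by the sum of the other 51 genes, and the gene's level in the top 20% of cells was divided by that in the bottom 20%. The median ratio over the 52 genes was 13.0 in KO and 10.2 in WT at day 6, and 3.16 in KO and 2.53 in WT at day 0. A ratio of 10 or more was found for 29 genes in KO and 26 in WT at day 6, and for none in either library at day 0. At day 6 the summed level was 15800.4 CPM in the top and 2143 CPM in the bottom 20% of KO cells, and 12729 CPM and 2088 CPM in WT. At day 0 it was 10279.9 CPM and 4171 CPM in KO, and 9716 CPM and 4357 CPM in WT. The day 6 libraries thus reached higher at the top and lower at the bottom than the day 0 libraries in both genotypes. In the bottom 20%, 9 genes in KO and 9 in WT at day 6 were at or below the level free RNA would give, and none at day 0.

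The genes that varied most with the others, by the geometric mean of the 4 ratios, were CKAP2L, KIF2C, AURKA, KIF23 and CENPA. CKAP2L had 227 UMIs in the top and 1 UMI in the bottom 20% of KO cells at day 6, and 151 UMIs and 0 UMIs in WT, at least 50.3-fold against a floor of 3 UMIs, but only 4.29-fold in KO and 3.03-fold in WT at day 0. KIF2C had ratios of 38.8 in KO and 67.9 in WT at day 6, and 4.06 in KO and 3.78 in WT at day 0. AURKA had 31.5 in KO and 31.0 in WT at day 6, and 6.39 in KO and 4.68 in WT at day 0. For KIF23 they were 39.8 in KO and 27.2 in WT at day 6, and 6.45 in KO and 3.87 in WT at day 0, and for CENPA 49.6 in KO and 21 in WT at day 6, and 4.73 in KO and 5 in WT at day 0. Some of these day 6 ratios rest on a bottom level no higher than free RNA would give: in both libraries for CKAP2L, KIF2C and KIF23, in KO for CENPA (7 UMIs, 1.98 CPM against 2.41 CPM) and in WT for AURKA (10.2 CPM against 10.6 CPM). Their size is therefore uncertain. For each of these 5 genes both day 6 ratios lay above both day 0 ratios, as they did for all 52.

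CBX5, CTCF, ANP32E, TMPO and CKS1B varied least. CBX5 had ratios of 1.46 in KO and 1.20 in WT at day 6, and 1.05 in KO and 1.13 in WT at day 0, so its level was nearly the same in cells rich and poor in the other 51 genes. CTCF had 1.63 in KO and 1.49 in WT at day 6, and 1.29 in KO and 1.47 in WT at day 0, and ANP32E 2.26 in KO and 1.85 in WT at day 6, and 1.08 in KO and 1.08 in WT at day 0. TMPO had 2.90 in KO and 2.57 in WT at day 6, and 1.42 in KO and 1.42 in WT at day 0, and CKS1B 3.32 in KO and 2.49 in WT at day 6, and 1.42 in KO and 1.41 in WT at day 0. The label of a G2 and M phase gene is thus weakly borne out by these cells for CBX5 and CTCF and, at day 0, for ANP32E, TMPO and CKS1B. By role, the median of the geometric mean was 8.10 for kinetochore and centromere genes, 7.65 for spindle motors and microtubule-binding proteins and 6.87 for the checkpoint genes, against 3.40 for chromosome structure and chromatin and 2.39 for the nuclear envelope.

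**Figure D5:**
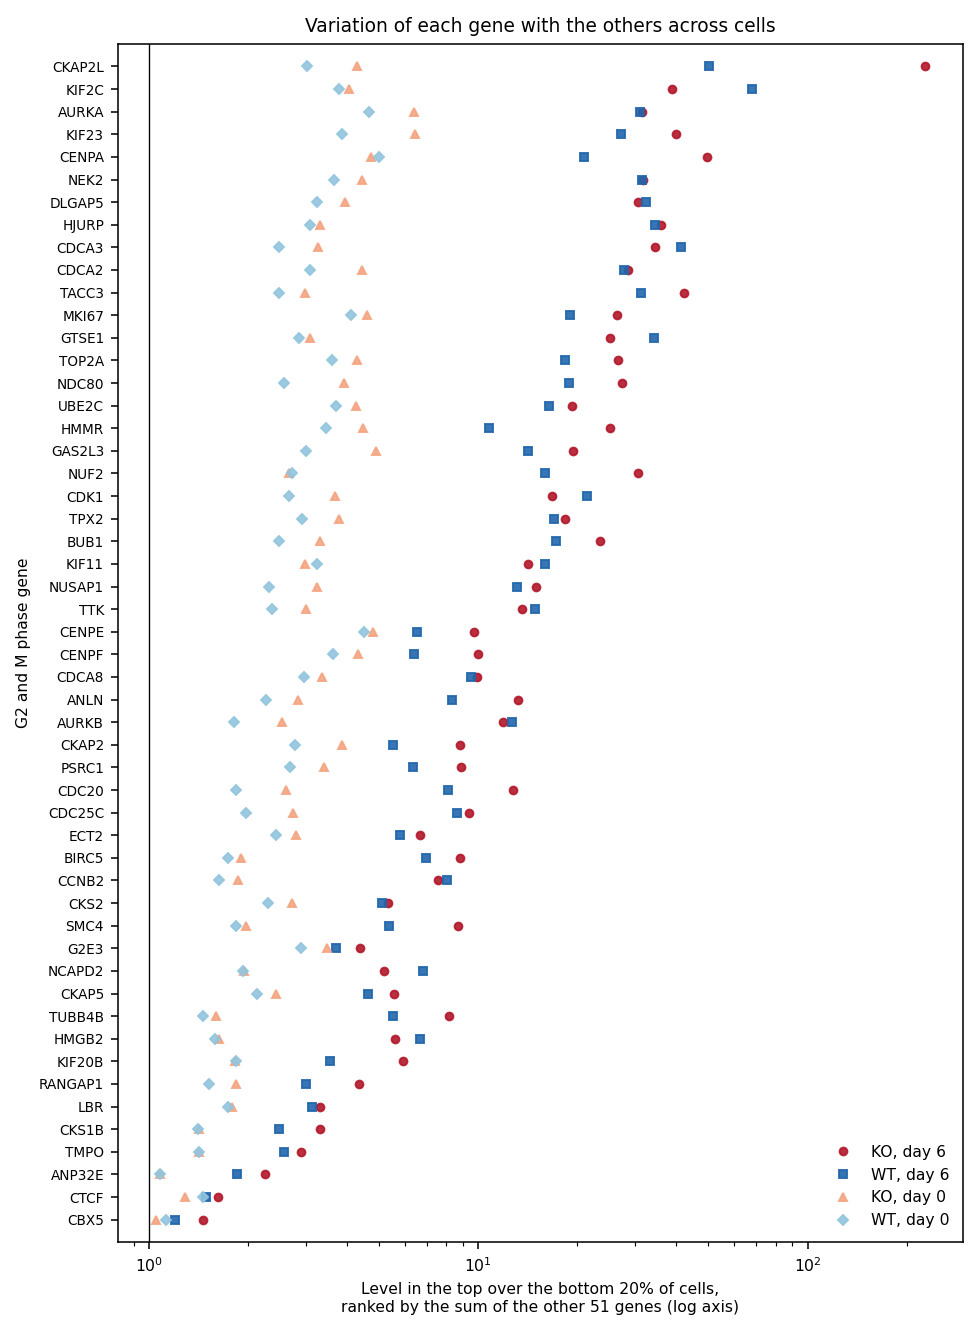
Ratio of each gene's level in the top over the bottom 20% of cells, ranked by the sum of the other 51 genes (log axis), in the 4 libraries, genes ordered by the geometric mean. Both day 6 libraries lie to the right of both day 0 libraries for all 52 genes. The WT day 6 point of CKAP2L is a lower bound of 50.3.

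Correlation across cells was taken next. Over the 4803 genes with 20 CPM or more in all libraries, the Pearson correlation of the gene with the sum of the 52 genes (itself left out) was averaged over the libraries, as a description of cells that share a library. The 49 of the 52 genes that reached this level had a median of 0.28, against 0.01 over all genes, and 45 of them stood among the first 100. TOP2A was first, with 0.76 in KO and 0.74 in WT at day 6, and 0.53 in KO and 0.47 in WT at day 0. The genes outside the 52 that followed them most closely were UBE2S (0.48), KPNA2 (0.47), CCNB1 (0.46), ARL6IP1 (0.39), PTTG1 (0.38), PLK1 (0.35), DEPDC1 (0.34), PRC1 (0.33), ASPM (0.33) and SGO2 (0.32). Of the 52, LBR, ANP32E, CTCF and CBX5 ranked only 106, 141, 173 and 237.

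The relation to S phase genes differed between the days. A fixed list of 43 S phase genes (replication factors and nucleotide enzymes) took 0.239% of UMIs per cell in KO and 0.157% in WT at day 6, and 0.338% in KO and 0.354% in WT at day 0. Across cells, its sum correlated with that of the 52 genes with r = 0.33 in KO (4419 cells) and 0.35 in WT (5372 cells) at day 6, but with r = -0.19 in KO (7275 cells) and -0.18 in WT (5533 cells) at day 0. Cells were also ranked by S phase RNA into 5 groups of 20%. At day 6, 10.4% of KO and 4.93% of WT cells in the lowest group had 1% or more from the 52 genes, the share was greatest at 29.5% in the middle group of KO and 19.7% in the next to highest group of WT, and in the highest group it was 9.17% in KO and 13.0% in WT. At day 0 the lowest group had the greatest share, 21.8% in KO and 18.6% in WT, and the highest group the smallest, 3.71% in KO and 4.52% in WT. The 2 sums share a cell's fixed total of 4000 UMIs.

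CDKN1A, the CDK inhibitor p21, had 68.9 CPM in KO and 292 CPM in WT at day 6, and 64.8 CPM in KO and 45.1 CPM in WT at day 0. Its level was 4.24-fold lower (4.10 to 4.38) in KO at day 6 and 6.48-fold higher (6.24 to 6.73) in WT at day 6 than at day 0. In KO cells at day 6 with at least 2 CDKN1A UMIs of 4000, 3.52% (1.53% to 6.83%) had 1% or more from the 52 genes, against 21.0% (19.7% to 22.4%) of those with none. In WT cells at day 6 these shares were 5.92% (4.76% to 7.27%) and 16.3% (14.9% to 17.7%), in KO at day 0 5.48% and 13.3%, and in WT at day 0 2.82% and 11.7%. There were 227 cells with 2 or more CDKN1A UMIs in KO at day 6, and 1436 in WT. With exactly 1 CDKN1A UMI, the shares at day 6 were 11.2% in KO (8.58% to 14.2%) and 11.5% in WT (9.74% to 13.4%). Cells with at least 2 CDKN1A UMIs thus held fewer of the high cells than cells with none in every library. By this share at day 6, KO stood above WT among cells with none and level with it among cells with 1. Among cells with 2 or more KO was below WT, with overlapping intervals. The median sum of the 52 genes was higher in KO in each class. It was 0.475% in KO against 0.325% in WT with none, 0.5% against 0.375% with 1, and 0.45% against 0.35% with 2 or more. The part of CDKN1A in the ratios of the 52 genes was not tested.

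The genes of 9 fixed lists around these steps were read in the same way, against the 17.4% of all measured genes called higher at day 6 and the 4.36% called lower. At day 6, 13 of 27 measured genes of the other kinetochore and checkpoint list were higher in KO, 12 of 24 of the other spindle genes and 8 of 14 of the other condensin and cohesin genes, with none lower. ASPM, a spindle pole protein, had 95.6 CPM in KO and 34.3 CPM in WT at day 6, and 115 CPM in KO and 118 CPM in WT at day 0, a ratio of 2.79-fold (2.65 to 2.94) at day 6. SGO2, a protector of centromeric cohesion, had 74.6 CPM in KO and 34.6 CPM in WT at day 6, and 46.4 CPM in KO and 52.6 CPM in WT at day 0, and KNL1, a kinetochore scaffold, had 39.7 CPM in KO and 19.2 CPM in WT at day 6, and 27.3 CPM in KO and 29.3 CPM in WT at day 0. NCAPG, a condensin subunit, had 46.7 CPM in KO and 21.8 CPM in WT at day 6, and 38.8 CPM in KO and 42.5 CPM in WT at day 0, and ESPL1, the protease separase, had 11.6 CPM in KO and 5.66 CPM in WT at day 6, and 16.5 CPM in KO and 18.2 CPM in WT at day 0. For KIF15 and KIF18A, both kinesins, the ratios were 2.18-fold (1.97 to 2.41) and 2.09-fold (1.90 to 2.29). In the other mitotic cyclins and kinases 3 of 12 were higher, BUB1B (1.60-fold (1.52 to 1.69)), BORA (1.51-fold (1.34 to 1.70)) and PLK4 (1.5004-fold (1.35 to 1.67)), in the anaphase-promoting complex 3 of 16, CDC27, CDC16 and CDC26, and among transcriptional regulators 2 of 14, E2F5 and RBL1. The counts for the anaphase-promoting complex and the regulators are thus near the share of all genes. Of the S phase list 20 of 38 were higher, led by BRIP1, a helicase, with 2.47-fold (2.20 to 2.76), and ATAD2, a bromodomain ATPase, with 1.96-fold (1.84 to 2.10). Of the CDK inhibitors CDKN3 was higher and CDKN1A and CDKN1C were lower, and neither measured G1 cyclin, CCND1 or CCND2, was called. At day 0 no gene of these 9 lists was called. In KO, 4 of 28 kinetochore and checkpoint genes, 0 of 14 condensin and cohesin genes and 11 of 39 S phase genes were lower at day 6 than at day 0, against 20.9% of all genes. In WT these counts were 18 of 28, 8 of 14 and 29 of 40, against 37.2% of all genes. With TMM factors the WT medians of these 3 lists came nearer to 0: -0.21 in place of -0.62 for kinetochore and checkpoint genes, -0.30 in place of -0.71 for condensins and cohesin, and -0.82 in place of -1.23 for S phase genes. By total UMIs MYBL2, a subunit of the MMB complex, was lower at day 6 in both genotypes. Its log2 ratios were -1.64 in KO and -1.75 in WT, and those of FOXM1, which works with it, -0.70 and -0.98. With TMM factors the median of the transcriptional regulators moved from -0.26 to -0.13 in KO and from -0.96 to -0.55 in WT.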

How the data were processed

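RNA 3′ ends of single cells were sequenced in droplets for 4 libraries of H9 cells, 1 for each genotype at each day, grouped by these labels. The deposited files hold whole-number UMI counts with no scaling. Cell Ranger 6.1.2 and GRCh38 are named in the submitters' processing notes, whereas Cell Ranger 4 is named per the file headers of the matrices. Other upstream steps are not given in the sources used here.

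From these, cells were called by the limits in the opening, since the deposited counts held every barcode. Counts were summed per library and scaled to CPM (65336710, 51424092, 73451883 and 73424397 UMIs in KO and WT at day 6 and KO and WT at day 0). Ratios of CPM had exact conditional binomial (Clopper-Pearson) 95% intervals and log2 ratios a prior count of 0.5. All genes were computed and those at 10 CPM in 1 of the 2 libraries counted as measured. No test was run, since cells are not replicates. The ratio and interval were tested on simulated data. Per-cell sums used cells thinned to 4000 UMIs without replacement. Doublets were kept: Scrublet (in scanpy 1.11.5) marked 0 cells by its automatic threshold, and removing the cells with the highest scores (0.8% for every 1000 cells) was an alternative. TMM factors came from edgeR 4.0.16. Gene positions, GC content and transcript length came from GENCODE v29, promoters from RefSeq on GRCh38.p14. CCNB2, CENPA, NUSAP1 and NCAPD2 overlap another gene on the same strand, so their counts are less certain.

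The 52 genes, the gene lists and the rule for named genes were chosen with earlier results of these data known. Full values were given for the 5 highest and 5 lowest genes of each comparison, the genes on chromosome 20, the 5 with the most and the 5 with the least variation with the others, genes opposite between genotypes, the 10 genes outside the 52 most like them and up to 4 per other list. The alternatives tried were other cell limits, doublet removal, free RNA subtraction, other scalings, fold limits and filters, and the treatment of chromosome 20.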

Additional observations from a re-analysis of the deposited data

Results flagged for a closer look

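Of the 52 genes, 3 moved in opposite directions between day 6 and day 0 in the 2 genotypes by total UMIs, each by a ratio of more than 5 to 4. At this limit 24.7% of all measured genes were higher in KO and 51.3% lower in WT. The share of all genes that moved in opposite directions is not given here. The difference of the log2 ratios of day 6 to day 0, KO minus WT, was 1.73 for CENPE, 0.868 for MKI67 and 0.846 for CDCA2. The difference was not tested, as each group is 1 library. With TMM factors the log2 ratios were 0.57 in KO and -0.88 in WT for CENPE, 0.52 and -0.06 for MKI67, and 0.56 and -0.01 for CDCA2. No gene of the 52 had ratios of KO to WT past 5 to 4 in opposite directions at the 2 days.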

How the results depend on the processing

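No paired analysis was possible because each group has 1 library and the labels carry no replicate numbers. Leaving out a replicate was not possible either. The direction of 1 result turned: the median log2 ratio of the 52 genes for day 6 over day 0 in WT was -0.22 by total UMIs and 0.188 with TMM factors, which rescale all genes of a library alike. With TMM factors 10 genes were higher for KO over WT at day 6 (all genes 7.22%), with a median of 0.228. For day 6 over day 0 in KO, 10 were higher (all genes 19%), with a median of 0.382. For day 6 over day 0 in WT, 8 were higher (all genes 25.8%) and 3 lower (18.6%). Without ribosomal protein and mitochondrial genes in the total, the median for KO over WT at day 6 was 0.351. With cells thinned to 4000 UMIs, day 6 over day 0 in KO gave 2 higher (all genes 13.3%), 1 lower (23.2%) and a median of 0.0957. Day 6 over day 0 in WT gave 21 lower (all genes 37.8%) and a median of -0.40. The cause was not tested. With chromosome 20-rich KO cells alone, 0 genes were lower in KO at day 6 (all genes 3.95%).

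The fold limit sets the counts by construction. At a ratio of 5 to 4, 36 were higher in KO at day 6 (all genes 41.5%), and 2 were higher (6.74%) and 1 lower (7.99%) in KO at day 0. For day 6 over day 0 in KO, 21 were higher (all genes 24.7%) and 2 lower (34.5%). In WT 5 were higher (all genes 19.2%) and 23 lower (51.3%). At 2-fold, 4 were higher (all genes 3.11%) and 0 lower (1.99%) in KO over WT at day 6. For day 6 over day 0, 0 were higher in KO (all genes 5.76%) and 3 lower in WT (19.4%).

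The share of cells with the 52 genes at the limit moved with the limit and with the genes summed. At 0.75% it was 27.7% and 17.7% in KO and WT at day 6, and 28.1% and 28.2% in KO and WT at day 0. At 1.5% it was 10.1% and 6.38% at day 6, and 1.46% and 0.976% at day 0. Without the genes on chromosome 20 it was 17.0% and 10.3% at day 6, and 7.97% and 6.27% at day 0. Without the 5 most abundant genes it was 11.2% and 6.61% at day 6, and 2.16% and 1.79% at day 0. In chromosome 20-rich KO cells at day 0 it was 13.3%.

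Of the other values of these kinds, 135 stayed within 1.5 times the count, or within the spread used for values without a test. Counting error limits little here, since every gene had at least 594 UMIs in each library. Thinning every cell to equal depth, which also gives each cell equal weight in the sums, moved some values. Whether depth or this weighting moved them was not tested. With every cell thinned to equal depth, the median log2 ratio of day 6 over day 0 in KO fell from 0.25 to 0.0957. In WT the gap between the 52 genes and all genes turned from 0.13 to -0.04. For KO over WT at day 6, 18 genes were higher with thinning, as without it, and 15 in cells of 6000 UMIs or more. The comparison is also limited by 1 library per group, which leaves culture, clone and library effects inseparable from genotype and day.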
